A study of Mus musculus with 2 samples.

Results

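The genes described encode receptors of haematopoietic cytokines and growth factors: Kit, Flt3, Csf1r, Csf2ra, Csf2rb, Csf3r, Il7r, Tek and Il6st. These 9 genes, of 19057 named genes on the array, were taken by symbol, with all 24 of their probes. The samples were bone marrow lineage- Sca1+ c-Kit+ (LSK) cells of C57BL/6J mice, which include the blood stem cells and early progenitors. One sample had the genotype labelled Ago2 Hem KO and the other was labelled Control, and each was hybridised to 1 Illumina bead array. Ago2 encodes an Argonaute protein, which carries microRNAs to the messenger RNAs they silence. The labels do not give the Cre line or promoter of the deletion, the age or sex of the animals, or how many animals were pooled. With 1 array per genotype there were no replicates, so no test is given and the precision of all values is limited by the number of arrays. In these bulk samples, fewer cells of a type and less RNA per cell cannot be told apart.

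Cytokine and growth factor receptors read the signals by which early blood cells survive, divide and choose a lineage. Kit, Flt3, Csf1r and Tek are receptor tyrosine kinases, which dimerise on binding their ligands and phosphorylate themselves. Csf2ra, Csf2rb, Csf3r, Il7r and Il6st have no kinase of their own, and the receptor complexes they form signal through bound JAK kinases. Stem cells and multipotent progenitors depend on Kit, lymphoid-primed progenitors on Flt3 and Il7r, and cells of the myeloid lineages on Csf1r, Csf3r and the Csf2ra and Csf2rb pair. The sort itself selected on c-Kit protein, so Kit is also a gate marker here.

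Upstream sequences are shown for the members whose values are described most closely below (Kit, Csf3r and Tek) and for Csf2ra, whose start site lies next to a motif. Each run is the 250 bases before a RefSeq transcription start (build GRCm38.p6), 5′ to 3′ on the strand of the gene. That start is not always the outermost one. The Csf3r run lies wholly inside the annotated gene, which starts at 126023441, and the Tek and Csf2ra runs lie partly inside theirs. Capitals mark matches to GAGGAA, a core bound by PU.1 and other ETS factors, the only motif of the set searched that these runs hold. The runs lie at chr5:75574737-75574986 (plus strand) for Kit, chr4:126024409-126024658 (plus strand) for Csf3r, chr4:94739039-94739288 (plus strand) for Tek and chr19:61228419-61228668 (minus strand) for Csf2ra.
Kit: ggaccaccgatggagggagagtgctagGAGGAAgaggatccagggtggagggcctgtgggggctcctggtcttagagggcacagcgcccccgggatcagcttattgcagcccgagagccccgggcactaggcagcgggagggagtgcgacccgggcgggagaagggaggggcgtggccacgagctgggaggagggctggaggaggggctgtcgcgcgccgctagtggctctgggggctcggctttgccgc
Csf3r: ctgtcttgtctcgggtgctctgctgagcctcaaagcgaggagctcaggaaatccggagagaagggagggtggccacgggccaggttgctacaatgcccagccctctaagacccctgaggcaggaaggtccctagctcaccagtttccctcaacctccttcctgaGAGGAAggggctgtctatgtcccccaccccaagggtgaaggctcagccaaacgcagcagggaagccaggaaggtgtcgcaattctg
Tek: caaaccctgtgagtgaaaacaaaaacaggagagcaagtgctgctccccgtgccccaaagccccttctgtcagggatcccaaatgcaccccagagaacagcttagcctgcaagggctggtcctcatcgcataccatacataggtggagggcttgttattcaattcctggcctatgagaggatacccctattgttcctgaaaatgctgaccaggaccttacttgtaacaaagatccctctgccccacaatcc
Csf2ra: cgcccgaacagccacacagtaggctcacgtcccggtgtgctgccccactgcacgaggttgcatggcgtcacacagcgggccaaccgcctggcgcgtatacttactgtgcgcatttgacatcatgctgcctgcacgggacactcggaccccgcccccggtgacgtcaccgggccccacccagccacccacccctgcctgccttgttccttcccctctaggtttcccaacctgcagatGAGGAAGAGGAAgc

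Of the 7 members whose upstream run was searched, 3 held GAGGAA on either strand, against 23.3% of 32851 RefSeq promoters of the same length. Relative to the start, the matches began at -223 in Kit, at -86 in Csf3r, and at -14 and -8 in Csf2ra, side by side without overlap. None of the 7 held AGATAA, a core of GATA factors (9.99% of promoters), or TGTGGT, a core of RUNX factors (14.0%). TTNNGCAA, a core of C/EBP factors, was found in Il7r alone of the 7 (9.56% of promoters). A match describes the letters in the window and is not evidence of binding.

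On the arrays, 34.4% of 45281 probes gave a signal above background in the Ago2 Hem KO sample and 32.8% in the Control sample. The Ago2 Hem KO array was the brighter one: 84.3% of the 12478 named probes detected on both arrays had a higher non-normalised signal there. Differences (Ago2 Hem KO minus Control) are therefore log2 values after background correction and quantile normalisation, with the non-normalised signals beside them. A probe counted as detected where its deposited detection p, a comparison with negative control probes, was under 0.01. The 3 probes of the targeted gene, Ago2, read -1.29, -0.79 and -0.44, so all were lower in the Ago2 Hem KO sample. Their signals were 180, 181 and 103 in Ago2 Hem KO and 288, 226 and 106 in Control, in that order. All 3 were detected on both arrays, so Ago2 signal remained above background in the Ago2 Hem KO sample. The dimmest of the 3 read -0.15 without background correction. The sources used here do not place these probes relative to the deleted part, and one lying outside it would check nothing. Of the stem and progenitor markers behind the LSK label, 7 of 14 were detected on both arrays, Kit and Cd34 (497 in Ago2 Hem KO and 359 in Control) among them, and 2 in Ago2 Hem KO only. Slamf1, Procr, Hlf, Myct1 and Flt3 were detected on neither array, and Ly6a, which encodes Sca1, was not analysed here.

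The receptors differed little between the genotypes and in no common direction. Of the 9 members, 8 had at least 1 probe detected on both arrays, and only Flt3 had none. Of these 8, 4 lay above 0 and 4 below it, with a median of 0.02, against a median of -0.05 over all 8212 genes detected on both arrays. None reached 2-fold, where 0.438% of all genes did (0.304% higher and 0.134% lower in Ago2 Hem KO). Only Tek passed 1.5-fold (0.585 on the log2 scale), and it did so downward, where 1.90% of all genes lay at least 1.5-fold lower in the Ago2 Hem KO sample and 3.80% were past 1.5-fold in either direction. The members ran from -0.62 for Tek to 0.48 for Csf3r, each read on the detected probe with the highest mean signal of its gene.

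**Figure D1:**
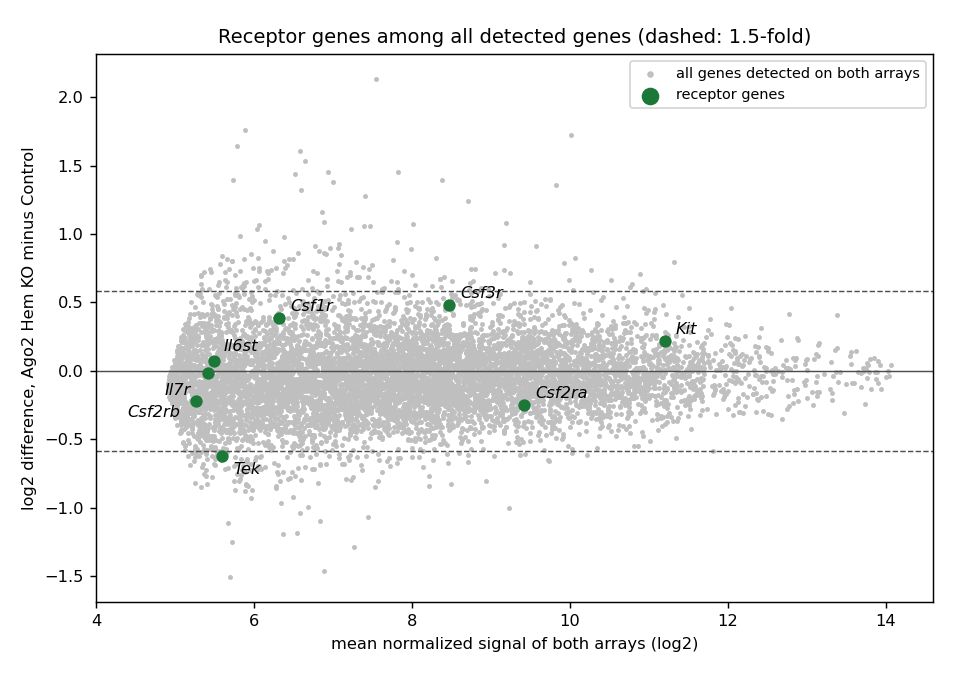
Difference between genotypes (Ago2 Hem KO minus Control, log2) against the mean normalised signal of both arrays (log2) for every gene detected on both arrays, 1 point per gene. The 8 detected receptor genes (green) lie within the cloud of all genes, and only Tek, at -0.62, is past the dashed 1.5-fold line.

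Among the receptor tyrosine kinases, Kit, the receptor for stem cell factor, was somewhat higher in the Ago2 Hem KO sample on both of its detected probes. Probe ILMN_1246876, tied to a RefSeq transcript in the annotation, gave a signal of 2793 in the Ago2 Hem KO sample and 2071 in the Control sample. The difference was 0.22 after normalisation, a 1.16-fold change. Of all detected genes 14.5% lay at least as high, and 37.3% lay at least as far from 0 in either direction. Probe ILMN_1216898, tied to a cDNA clone, gave 203 in the Ago2 Hem KO sample and 168 in the Control sample, a difference of 0.12. The remaining Kit probe, also tied to a cDNA clone, was not detected on either array, at signals of 90.6 in Ago2 Hem KO and 86.2 in Control. The detected Kit probes thus lay 0.10 apart, and 78.8% of genes with several detected probes had a gap at least as wide.

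Flt3, the receptor for the FLT3 ligand and a marker of multipotent and lymphoid-primed progenitors, was not detected in either sample. Its RefSeq probe gave 88.1 in the Ago2 Hem KO sample and 91.2 in the Control sample, with the authors' detection p-values of 0.401 and 0.0833. Its cDNA clone probe gave 89.8 in the Ago2 Hem KO sample and 87.9 in the Control sample, with the authors' detection p-values of 0.265 and 0.193. These signals stood at 1.00 to 1.08 times the background mean of their own array, so no fold is given for Flt3. Flt3 transcript was thus not detectable with these probes, and its absence is not shown.

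Csf1r, the receptor for macrophage colony-stimulating factor, was read differently by its 2 probes. Probe ILMN_2710819 gave 172 in the Ago2 Hem KO sample and 132 in the Control sample, a difference of 0.39. Probe ILMN_1230485 gave 120 in the Ago2 Hem KO sample and 112 in the Control sample, a difference of -0.11. The non-normalised signal was higher in Ago2 Hem KO on both probes, and normalisation put them on opposite sides of 0, with a mean of 0.14. Markers of monocytes and macrophages were read beside it: of 12 on the array, Csf1r included, 6 were detected on both arrays, 3 in Ago2 Hem KO only and 0 in Control only. Of the 6, with a median of 0.18, 4 lay above 0, where 41.8% of all genes did. C1qb and C1qc, complement genes of macrophages, were at least 1.46-fold and 1.51-fold higher in Ago2 Hem KO in each of 6 background and normalisation settings, and C1qa at least 1.02-fold. The summed normalised signal was 2572 in the Ago2 Hem KO sample and 2856 in the Control sample, and F13a1, a bright gene of the list, differed by -0.57 (1224 in Ago2 Hem KO and 1517 in Control). The markers Adgre1 and Fcgr1 were detected on neither array, and the part of such cells in the Csf1r value was not tested.

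Tek, the angiopoietin receptor of endothelial cells and of quiescent stem cells, read lower in Ago2 Hem KO than in Control. It was the member farthest from 0 after background correction with an offset of 16, while Csf3r was farther without that correction (0.40, against -0.25 for Tek), with an offset of 50 (0.44, against -0.36) and in the authors' deposited value table (0.40, against -0.22). Its single probe gave 114 in the Ago2 Hem KO sample and 123 in the Control sample, and both signals were detected. The normalised difference was -0.62, a 1.54-fold lower level in the Ago2 Hem KO sample, and 3.18% of all genes lay at least as far from 0 in either direction. Tek signals stood at 1.30 and 1.46 times the background mean of the Ago2 Hem KO and the Control array, which put Tek in the dimmest of 3 equal groups of genes by signal. In that group 3.76% of genes were at least 1.5-fold lower in Ago2 Hem KO, against 1.57% of the middle and 0.365% of the brightest group. The central 95% of differences in the dimmest group ran from -0.67 to 0.60, a range that includes Tek. The Tek difference was under 1.5-fold in those 3 settings and with cyclic loess (-0.57), and the gene had no other probe to set beside it.

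Stromal and endothelial markers were measured beside Tek. Of 16 on the array, Tek included, 8 were detected on both arrays and 8 on neither, and their summed normalised signal was 793 in the Ago2 Hem KO sample and 991 in the Control sample. The endothelial genes Cdh5 and Kdr were not detected on either array, and Pecam1, which blood progenitors also express, differed by 0.06 on its probe of highest signal and by -0.31 on another. Tie1, the receptor related to Tek, differed by -0.32 (122 in Ago2 Hem KO and 122 in Control before normalisation). The matrix genes Mmp2 and Bgn, at -1.19 and -1.04, were past 2-fold lower, where 0.134% of all genes were. The other detected markers were Emcn at -0.18, Vwf at -0.09 and Pdgfrb at 0.19. The part of stromal or endothelial cells in the Tek value was not tested.

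**Figure D2:**
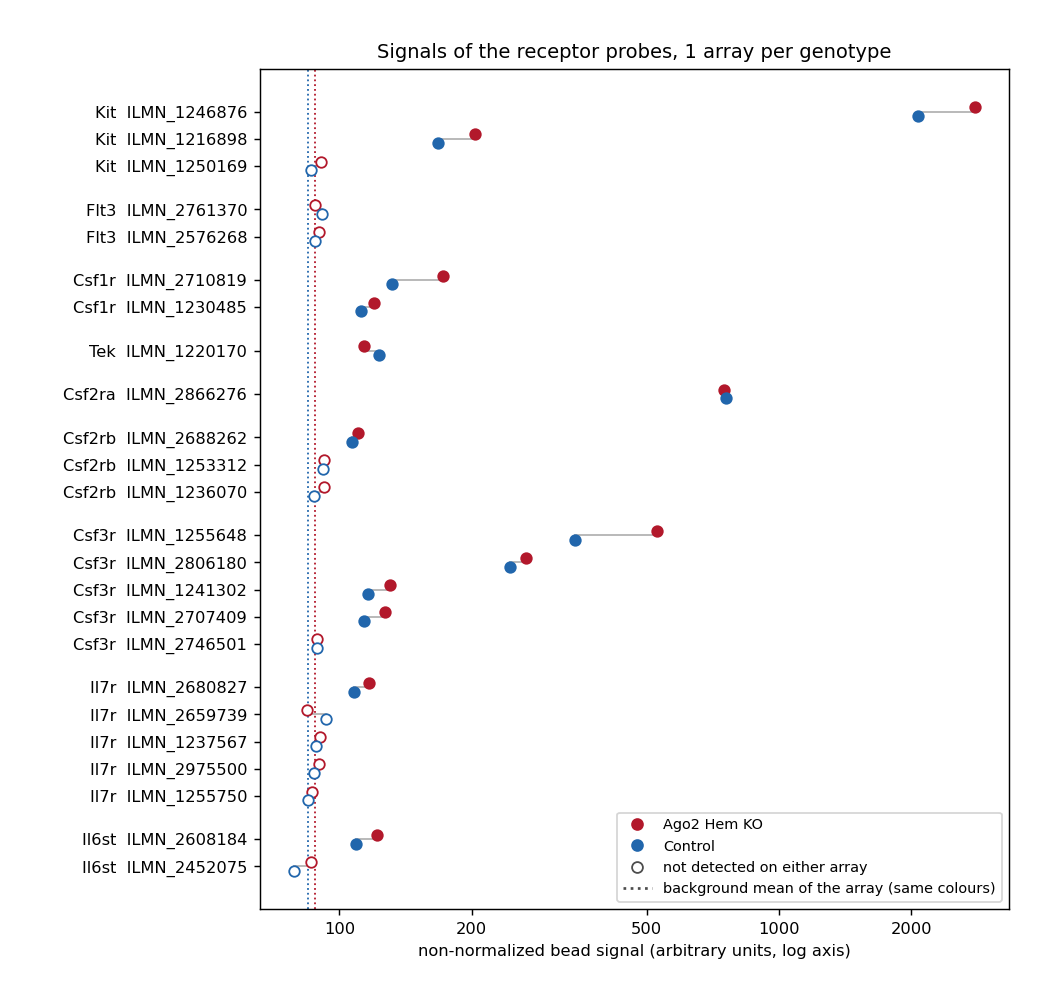
Non-normalised bead signal of all 24 receptor probes on a log axis, Ago2 Hem KO in red and Control in blue, with open points for probes detected on neither array and dotted lines at the background mean of each array. The 11 undetected probes, both Flt3 probes among them, sit at the background lines, and of the 13 detected probes only those of Tek and Csf2ra are lower in Ago2 Hem KO.

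The GM-CSF receptor is built of an α chain, Csf2ra, and the common β chain Csf2rb, which IL-3 and IL-5 receptors share. Csf2ra had 1 probe, with signals of 752 in the Ago2 Hem KO sample and 757 in the Control sample. The signals were nearly equal on arrays of unequal brightness, and the normalised difference was -0.25, with 80.9% of all genes lying at or above it. Csf2rb had 1 detected probe of 3, at 110 in the Ago2 Hem KO sample and 107 in the Control sample, a difference of -0.22. Both chains were thus slightly lower in Ago2 Hem KO after normalisation, and neither was past 1.5-fold. The other Csf2rb probes were not detected, at 92.0 and 92.1 in Ago2 Hem KO and 87.3 and 91.9 in Control. Csf2rb has a close copy next to it on chromosome 15, Csf2rb2, an IL-3 receptor chain of mice, and whether the Csf2rb probe also reads that copy is uncertain. The Csf2rb2 probe itself was not detected on either array, at 89.2 in Ago2 Hem KO and 92.3 in Control.

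Csf3r, the G-CSF receptor that drives neutrophil production, had the most detected probes, and these probes lay on both sides of 0. Probe ILMN_1255648 gave 528 in the Ago2 Hem KO sample and 343 in the Control sample, a difference of 0.48. This value was equalled or exceeded by 3.39% of all genes, and 7.22% lay at least as far from 0 in either direction. Csf3r fell in the middle of 3 equal groups of genes by signal. The central 95% of differences there ran from -0.51 to 0.54, a range that includes Csf3r. Probe ILMN_2806180 gave 266 in the Ago2 Hem KO sample and 245 in the Control sample, a difference of -0.11. The 2 dimmer probes differed by 0.04 (130 in Ago2 Hem KO and 116 in Control) and by 0.02 (127 in Ago2 Hem KO and 114 in Control). The value of 0.48 thus came from 1 of 4 detected probes, and the mean over the 4 was 0.11. A further probe was not detected on either array, at 88.8 in Ago2 Hem KO and 89.0 in Control. All 5 probes are tied to the same RefSeq transcript record in the annotation, so it does not say which transcript forms they separate, and the sources used here do not give their positions on it.

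Markers of mature neutrophils did not move in one direction beside Csf3r. Both arrays detected 9 of the 11 measured, with 1 in Control only and 1 on neither, and their summed normalised signal was 25032 in the Ago2 Hem KO sample and 24940 in the Control sample. Of the 9, 3 lay above 0, where 41.8% of all genes did. Ltf and Retnlg were at least 2-fold lower in Ago2 Hem KO (-1.0 and -1.12), where 0.134% of all genes were. Retnlg was dim, at 109 in Ago2 Hem KO and 137 in Control. None was past 1.5-fold higher, and S100a9 differed by 0.25. S100a8 was the brightest gene of the sum, at 13036 in Ago2 Hem KO and 12721 in Control before normalisation. Myeloid progenitor markers, 9 of 9 detected on both arrays, summed to 67326 in the Ago2 Hem KO sample and 69320 in the Control sample. Mpo, Elane, Prtn3 and Ctsg weigh most in that sum. Their signals were 12818 to 15709 in Ago2 Hem KO and 13443 to 15568 in Control. The highest signals of any probe were 17114.6 and 17868.5 on these arrays. The part of neutrophils in the Csf3r value was not tested.

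Il7r, the IL-7 receptor α chain of lymphoid progenitors, had 5 probes, of which 1 was detected. That probe gave 117 in the Ago2 Hem KO sample and 108 in the Control sample, a difference of -0.02. It became 0.02 with cyclic loess normalisation, which also moved the median of all genes from -0.05 to -0.01. The 4 undetected Il7r probes had signals of 84.4 to 90.2 in Ago2 Hem KO and 84.6 to 93.3 in Control. B lineage markers were read beside it, 7 detected on both arrays of 10 on the array and Il7r among them. All 7 lay below 0, where 41.8% of all genes lay above it, but Il7r and Vpreb3 (-0.03) lay above the median of all genes, -0.05. The summed normalised signal of the B lineage markers was 777 in the Ago2 Hem KO sample and 1044 in the Control sample. Il7r was the member of that list closest to 0, and the lowest, the surrogate light chain gene Igll1, was at -0.79. Pax5, Rag1 and Ms4a1 were not detected on either array, and the part of B lineage cells in the Il7r value was not tested.

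Il6st encodes gp130, the signal-transducing chain shared by receptors for IL-6, IL-11, LIF and oncostatin M. Its detected probe gave 122 in the Ago2 Hem KO sample and 109 in the Control sample, a difference of 0.07. The other Il6st probe was at background, with 86.2 in Ago2 Hem KO and 78.8 in Control and the authors' detection p-values of 0.594 and 0.96. The Il6st signal was thus above background in both samples and differed by 1.05-fold after normalisation.

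Agreement between probes was checked for every member that allowed it. Of the 24 probes, 13 were detected on both arrays, 11 on neither and 0 on 1 array only. After normalisation 7 of the 13 lay above 0 and 6 below, although 11 of the 13 had a higher non-normalised signal in the Ago2 Hem KO sample. The 3 members with more than 1 detected probe were Kit, Csf1r and Csf3r, and all probes shared a sign in 1 of them, Kit. Over all 3016 genes with 2 or more detected probes, 56.3% had every probe on one side of 0. The gap between the highest and the lowest probe was 0.59 for Csf3r and 0.49 for Csf1r, against a median gap of 0.23 and a 90th percentile of 0.57 over these genes. Genes with 4 or more detected probes, as Csf3r has, numbered 216, with a median gap of 0.41 and 30.1% on one side of 0. The standard deviation between probes of one gene was 0.21. It describes how far probes on the same arrays disagree and gives no error for a difference between the samples.

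**Figure D3:**
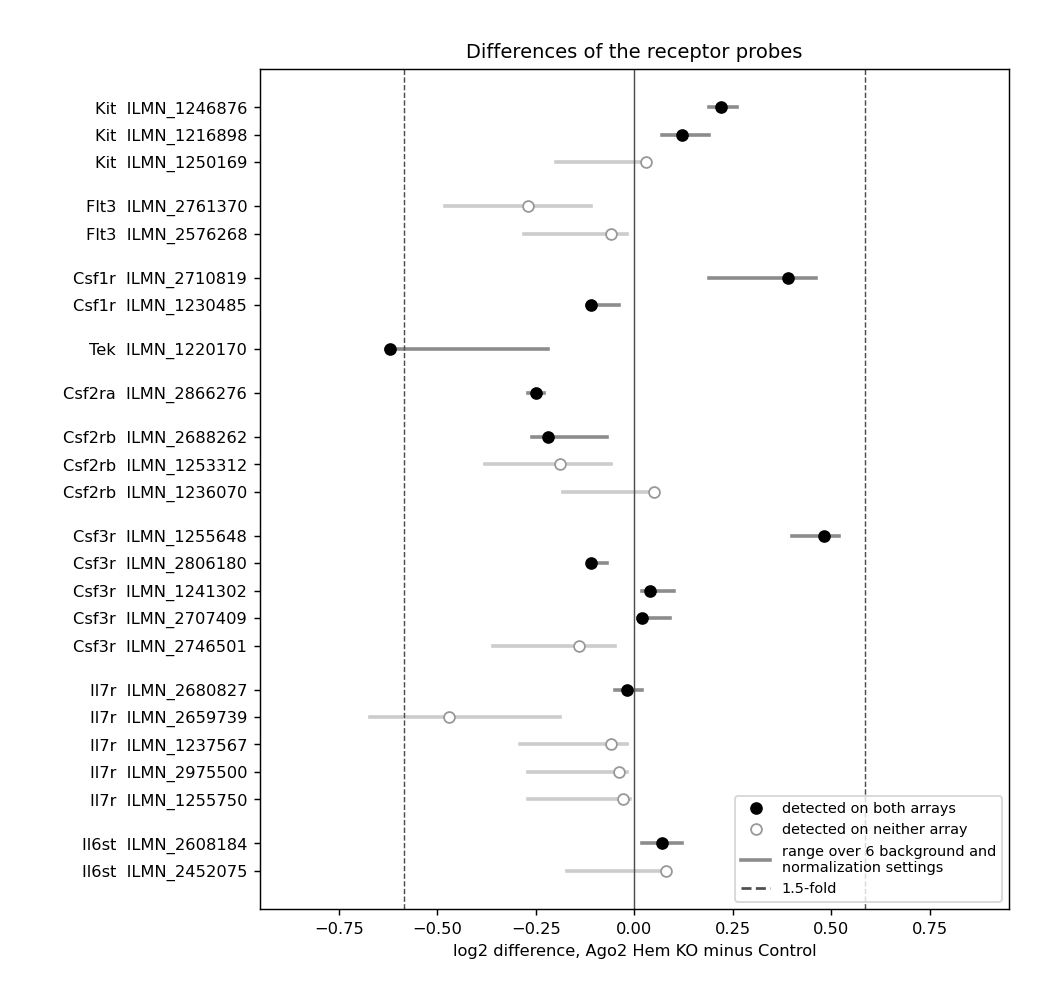
Difference of each receptor probe (Ago2 Hem KO minus Control, log2), filled where detected on both arrays and open where detected on neither, with bars over the 6 background and normalisation settings and dashed lines at 1.5-fold. The Csf3r probes run from -0.11 to 0.48 and the Csf1r probes from -0.11 to 0.39, and the bar of Tek runs back from beyond the 1.5-fold line to -0.22.

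Ligands of these receptors are made largely by stromal and immune cells, and most were not detected in the sorted cells. Only 4 of the 20 ligand genes were above background on both arrays, and 16 were on neither, among them Kitl, Flt3l, Csf1, Csf3 and Il7. Angpt1, the ligand of Tek that stem cells also make, was at 234 in the Ago2 Hem KO sample and 217 in the Control sample, a difference of -0.14. Osm, a ligand that signals through Il6st, differed by 0.08. Ctf1, cardiotrophin 1 of the same cytokine family, was the only ligand past 1.5-fold, at -0.82 (-0.31 without background correction, 106 in Ago2 Hem KO and 120 in Control, both close to background). Over all genes detected on both arrays, 3.80% were past 1.5-fold in either direction.

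Partner chains and related cytokine receptors lay mostly below 0. Both arrays detected 11 of the 27 measured, with a median of -0.24 against -0.05 over all genes. Of these 11, 2 lay above 0, where 41.8% of all genes did. Past 1.5-fold, 0 were higher and 2 lower, where 1.90% of all genes lay in each direction. Among partner chains of the members, Il3ra, which pairs with Csf2rb, differed by -0.36 (281 in Ago2 Hem KO and 295 in Control). Il6ra, which binds IL-6 and joins Il6st, also differed by -0.36 on its probe of highest signal (200 in Ago2 Hem KO and 204 in Control), with its 3 detected probes between -0.36 and -0.05. Crlf2, which pairs with Il7r to bind TSLP, differed by -0.13. The pair past 1.5-fold was Il10ra, the IL-10 receptor α chain, at -0.62, and Il27ra, which joins Il6st to bind IL-27, at -0.61. The second Il27ra probe lay at 0.02. Without background correction Il10ra and Il27ra were at -0.31 and -0.44, under 1.5-fold. Ifngr2, the interferon γ receptor β chain, was the highest at 0.56, with another of its probes at -0.04.

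Detection on 1 array alone gave only lower bounds for related receptors, which are on the normalised scale and shrink without background correction. The lowest over 6 background and normalisation settings is given. Epor, the erythropoietin receptor, was above background in Ago2 Hem KO alone (118 against 95.7 in Control) and was at least 1.1-fold higher there. Erythroid markers moved with it: of 11 on the array, Epor included, 7 were detected on both arrays. Of these 7, 5 were past 2-fold higher, where 0.304% of all genes were. They were the globin genes Hba-a1 (2.14), Hbb-bt (1.40) and Hbb-bs (1.24), with Car1 (1.72) and Klf1 (1.44). Tfrc and Gata1 differed by 0.31 and 0.14, and Alas2 was detected on neither array. The summed normalised signal of the erythroid markers was 5199 in the Ago2 Hem KO sample and 2466 in the Control sample. The part of erythroid cells in the Epor value was not tested. Il20rb was detected in Control only (99.7 in Ago2 Hem KO and 105 in Control) and was at least 1.09-fold lower in Ago2 Hem KO. Osmr, a partner of Il6st, was detected in Ago2 Hem KO only, at 102 against 94.2, and allowed no fold.

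Other receptor tyrosine kinases numbered 26 on the array, with 7 detected on both arrays and a median of 0.19. Of the 7, 1 was past 1.5-fold, where 3.80% of all genes were in either direction. That gene was Ryk, a Wnt-binding receptor, at 0.81 (203 in Ago2 Hem KO and 130 in Control), and its second probe lay at 0.85. Without background correction Ryk was at 0.46. Mst1r, the macrophage-stimulating protein receptor, was detected in Ago2 Hem KO only and was at least 1.19-fold higher there (130 in Ago2 Hem KO and 94.8 in Control). Ephb4, detected in Ago2 Hem KO only, was at 103 against 97.0 in Control, with no fold.

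Downstream of the receptors, JAK-STAT genes were near 0 as a list, with 22 of 26 detected on both arrays and a median of -0.01. The kinases that Csf2rb, Csf3r, Il7r and Il6st use were among them: Jak2 differed by -0.22, Jak1 by 0.13 and Jak3 by 0.12. Of the 22, 1 was past 1.5-fold, where 3.80% of all genes were in either direction. That gene was Socs3, the feedback inhibitor that binds Il6st and Csf3r. It was at 0.65 on its single detected probe and at 0.43 without background correction (259 in Ago2 Hem KO and 167 in Control). Sh2b3, an adaptor that restrains cytokine signalling, was detected in Ago2 Hem KO only, at 105 against 92.8 in Control, and allowed no fold with median scaling.

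Ras, PI3K and Src family genes, with 21 of 33 detected on both arrays and a median of -0.09, held 0 past 1.5-fold. Of all genes 3.80% were past it in either direction. The highest of them was the PI3K catalytic subunit Pik3cb at 0.45, and the lowest was the docking protein gene Gab1 at -0.34. Genes that these cytokines are known to induce had a median of 0.14, and 21 of 26 detected lay above 0, where 41.8% of all genes did. Of the 26, 1 was past 1.5-fold, where 3.80% of all genes were in either direction. That gene was Pim1, a survival kinase induced through STAT5, at 0.66 (169 in Ago2 Hem KO and 120 in Control). Its other detected probe lay at -0.14, and the first was at 0.33 without background correction. Id1, an inhibitor of basic helix-loop-helix factors, was the lowest at -0.46.

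Transcription factors that act on receptor genes lay around 0, with 21 of 24 detected on both arrays and a median of -0.04. On the probe of highest signal 0 were past 1.5-fold, where 3.80% of all genes were in either direction. Meis1, a stem cell homeobox factor, differed by 0.14 on that probe and by 1.25 on its other detected probe, with a mean of 0.70. Myb was the highest at 0.46, with its other detected probe at 0.13. Foxo1, which acts on Il7r, was the lowest at -0.57 on its single detected probe (108 in Ago2 Hem KO and 115 in Control, both close to background). Spi1, which encodes PU.1, differed by -0.22 on its single detected probe (331 in Ago2 Hem KO and 321 in Control), and Gata2, which acts on Kit, by 0.45 (1040 in Ago2 Hem KO and 674 in Control). Klf4 was detected in Ago2 Hem KO only, at 104 against 93.9 in Control, with no fold.

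**Figure D4:**
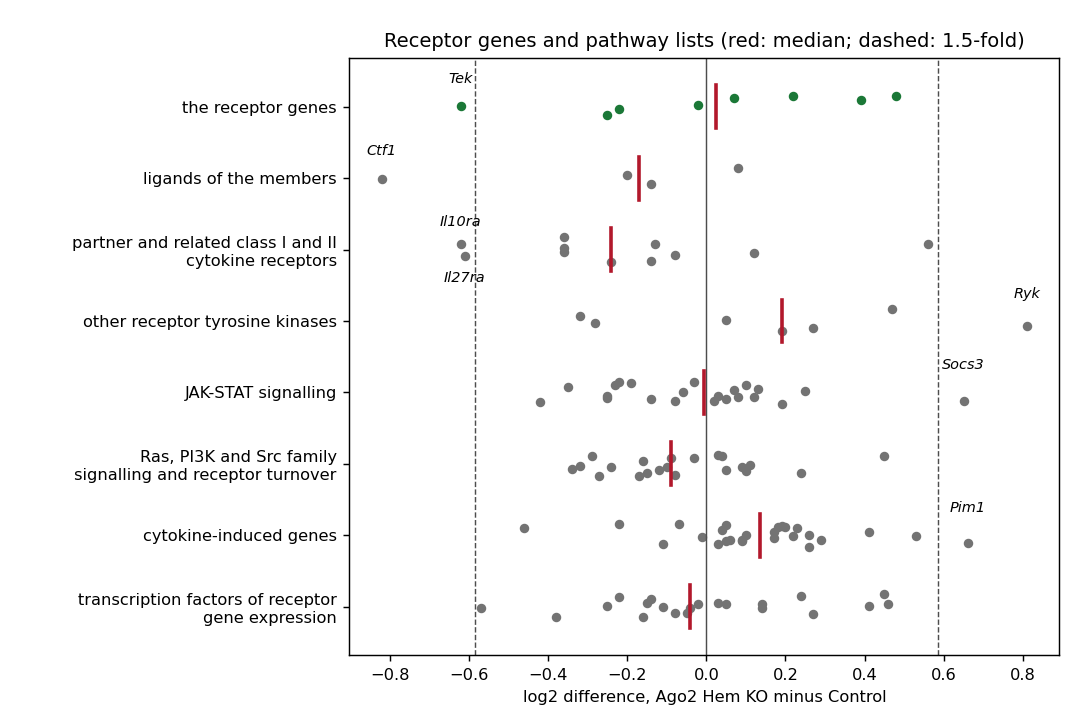
Difference between genotypes (Ago2 Hem KO minus Control, log2) of the 8 detected receptor genes (green) and of the detected genes of 7 pathway lists (grey), 1 point per gene, with red bars at the medians and dashed lines at 1.5-fold. List medians lie between -0.24 and 0.19, and the genes past 1.5-fold are named.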

How the data were processed

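The data are total RNA of LSK cells, amplified and labelled with biotin per the labels' protocols, with 1 Illumina bead array per genotype. The deposited non-normalized table holds mean bead intensity on a linear scale and a detection p-value per probe, per the file headers. The submitters' processing notes name BeadStudio, with further steps not given. A second deposited table gives the authors' own processed intensity, linear in scale, and its columns share one distribution (medians 86.2 in Ago2 Hem KO and 86.2 in Control). Each of its columns ranks probes as its own array does (Spearman 1.00 against 0.883 for the other array), and its target distribution is unknown.

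Background was fitted from the detection p-values and removed with normexp in limma 3.58.1 (R 4.3.3), with an offset of 16, quantile normalisation and log2. The background mean and SD were 87.8 and 4.38 for Ago2 Hem KO and 84.7 and 4.20 for Control. Quantile normalisation removes a change shared by most genes, and the offset pulls the differences of dim probes toward 0. Of the probes, 34885 had 1 gene symbol, 18 had several and were not named, and 10378 had none, and 34807 matched the RefSeq table of GRCm38.p6 by gene identifier. A gene was read on its detected probe of highest mean signal, and a gene detected on 1 array only by a lower bound against the lowest detected level of the other array. The steps were checked on simulated arrays with known folds.

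The members and lists were chosen with earlier results of these data known. Named genes were the members, Ago2, and in each pathway list those past 1.5-fold, or else the highest and the lowest, and those detected on 1 array only. Further genes named as partners, kinases, regulators or markers, or as the extremes of lists with a gene past 1.5-fold, were added after their values were seen. Marker sums add, on the linear scale, the highest normalised signal of each gene detected on at least 1 array. Results for the members, Ago2 and the pathway lists were recomputed with the background left in, with the offset at 50, with median scaling or cyclic loess in place of quantiles, and from the authors' value table. The detection limit was also set to 0.05, dropped, or joined with a floor at the median signal, and a gene was also read as the mean over its detected probes.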

Additional observations from a re-analysis of the deposited data

How the results depend on the processing

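The differences of Ago2 and of the members, the counts of members and the medians of the pathway lists were recomputed under 9 alternatives, of which the median-signal floor left no value for Ago2, Csf1r, Csf2rb, Il7r, Tek and Il6st. Marker sums and shares of all genes were not recomputed. Alternatives for the pathway genes past 1.5-fold, Meis1 and the lower bounds were added after their values were seen, the bounds under the 5 background and normalisation alternatives. No paired analysis was possible because each genotype had 1 array. No member reached 2-fold under any of them, and Il7r was the 1 member whose sign turned, to 0.02 with cyclic loess. With cyclic loess the median of all genes also moved, from -0.05 to -0.01. Members past 1.5-fold numbered 0 in place of 1 without background correction, with an offset of 50, with cyclic loess, in the authors' value table and with the floor at the median signal, where Tek has no value and 3 members are left. Tek ranged from -0.63 to -0.22. The pathway genes past 1.5-fold were in the authors' value table at -0.27 for Ctf1, -0.28 for Il10ra, -0.42 for Il27ra, 0.42 for Ryk, 0.40 for Socs3 and 0.30 for Pim1, all with the same sign and under 1.5-fold. Csf3r and Csf1r moved to 0.11 and 0.14 as means of their detected probes. Members whose probes shared a sign numbered 4 of 7 with the detection limit dropped and 0 of 1 with the median floor, in place of 1 of 3. Ago2 differed by -0.88 without background correction, -1.05 with an offset of 50, -0.83 in the authors' value table and -0.84 as the mean of its probes, in place of -1.29. With no filter on detection p, Flt3 read -0.27 from signals at background. The median of the members ran from -0.02 to 0.22, and that of JAK-STAT genes from -0.06 to 0.05. Signal over background limits Flt3, Tek, Il7r, Il6st, Csf1r and Csf2rb, and replicates would be needed for any test.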
